A study of Homo sapiens with 6 samples.

Results

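Protocadherins are cell adhesion proteins of the cadherin superfamily, and 65 of the 27672 genes in the RNA-seq table carry a protocadherin symbol. They were taken by their symbol alone, as PCDH followed by a number, or by A, B, GA, GB or GC and a number, with PCDHAC1, PCDHAC2 and PCDH11X. Of these, 53 lie in the 3 gene clusters on chromosome 5 (15 alpha, 16 beta and 22 gamma members) and 12 are non-clustered genes elsewhere. Transcripts were measured in H9 cells, a human embryonic stem cell line, before and after conversion towards caudal spinal cord precursors, in 3 biological replicates per group. The hESC group was collected at day 0 without treatment, and its labels give feeder-free culture in DEF medium with bFGF at 30 ng/ml and Noggin at 10 ng/ml on fibronectin, whereas the Methods of the study give TESR medium on Geltrex. The NMP-L (D3) group, neuromesodermal progenitor-like cells, was collected at day 3 after culture in N2/B27 or Neurobasal medium with bFGF at 20 ng/ml and 3 µM of CHIR99021, which activates Wnt signalling by inhibiting GSK3. The Methods add Noggin and the TGFβ receptor inhibitor SB431542 from day 2, which the labels of these libraries do not mention. Both groups come from 1 cell line, so that differences between donors are not covered.

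Clustered protocadherins are made from arrays of variable first exons, each with its own promoter. In the alpha and gamma clusters every variable exon is spliced to the same constant exons, which encode a shared cytoplasmic end, while each beta gene is a single exon without such an end. In neurons a few alternate isoforms are chosen per cell through CTCF and cohesin looping between a promoter and a distant enhancer, and like isoforms on touching cell surfaces recognise each other, which lets sister branches of 1 neuron avoid each other. The 5 C-type isoforms (PCDHAC1, PCDHAC2, PCDHGC3, PCDHGC4 and PCDHGC5), at the downstream ends of the alpha and gamma clusters, are regulated differently and are found in many neurons at once. The non-clustered protocadherins are separate genes, most of them of the delta-1 and delta-2 groups, which act in cell sorting, cell movement and actin remodelling.

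The promoters of the clusters are shown because each variable exon is transcribed from its own. RefSeq promoters (GRCh38.p14, 250 bases before to 50 bases after the start) matched 57 of the 65 members, and the printed stretches were placed by exact match on GRCh37, the build of the files. Comparing their letters gave an 8-base element for each cluster, chosen after the sequences and the expression values had been seen. ATGTCGCT stood in 9 of 13 alpha promoters against 0.245% of all 27305 promoters of the table, GTGGCGCT in 13 of 14 beta promoters against 1.18%, and GCCGCTGT in 11 of 20 gamma promoters against 1.60%, on either strand and without overlap between the elements. None of the 3 was found in the 10 non-clustered promoters. The 100 bases before the start are given below for members whose values are described further on, all on the plus strand of chromosome 5, with the element of the member's own cluster in capitals.
PCDHA1 (chr5:140165625-140165724), element 42 bases before the start: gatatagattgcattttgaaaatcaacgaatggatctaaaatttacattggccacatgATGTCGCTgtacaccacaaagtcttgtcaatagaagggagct
PCDHA12 (chr5:140254793-140254892), element 52 bases before the start: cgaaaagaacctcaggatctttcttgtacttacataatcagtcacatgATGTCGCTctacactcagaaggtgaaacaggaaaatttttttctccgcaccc
PCDHAC1 (chr5:140305784-140305883), no element: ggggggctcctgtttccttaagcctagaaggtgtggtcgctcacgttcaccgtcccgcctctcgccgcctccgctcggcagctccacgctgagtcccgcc
PCDHAC2 (chr5:140345961-140346060), no element: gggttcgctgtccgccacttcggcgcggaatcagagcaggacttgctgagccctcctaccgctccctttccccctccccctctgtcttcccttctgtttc
PCDHB5 (chr5:140514688-140514787), element 15 bases before the start: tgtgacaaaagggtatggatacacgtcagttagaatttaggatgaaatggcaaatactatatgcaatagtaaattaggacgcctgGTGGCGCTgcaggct
PCDHB10 (chr5:140571826-140571925), element 42 bases before the start: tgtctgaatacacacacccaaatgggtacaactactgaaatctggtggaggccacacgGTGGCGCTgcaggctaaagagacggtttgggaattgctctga
PCDHB12 (chr5:140588191-140588290), element 64 bases before the start: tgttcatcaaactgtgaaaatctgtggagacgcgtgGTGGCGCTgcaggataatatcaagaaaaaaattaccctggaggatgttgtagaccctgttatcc
PCDHGA10 (chr5:140792454-140792553), element 42 bases before the start: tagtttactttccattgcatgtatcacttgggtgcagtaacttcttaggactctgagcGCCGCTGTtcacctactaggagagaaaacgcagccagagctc
PCDHGC3 (chr5:140855433-140855532), element 72 bases before the start: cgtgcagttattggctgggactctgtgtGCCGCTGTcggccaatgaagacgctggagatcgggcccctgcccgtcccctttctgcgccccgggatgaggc

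The other letters searched were the consensus core of a CTCF site, in 3.41% of all promoters and in 0 alpha, 1 beta, 0 gamma and 1 non-clustered promoter, and CGCTCC and CCGCTA, in 25.0% and 5.65% of all promoters. CGCTCC was held by 2 alpha, 1 beta, 4 gamma and 2 non-clustered promoters, and CCGCTA by 1, 0, 0 and 2. A missing match, here or for the cluster elements above, says only that these exact letters are not in the window. The promoter of PCDHA11, for example, lacks ATGTCGCT but holds GTGTCGCT, which differs in its first letter.

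Part of the reads of the alpha and gamma genes cannot be assigned to 1 member, and this sets how their values are to be read. RSEM divides a read that fits several genes among them, which leaves fractional expected counts. Of the 53 clustered members, 52 (98.1%) had a fractional count in some library, the exception being PCDHB1, against 8.44% of all genes and 1 of 12 non-clustered members (PCDH11X). Cut into windows of 76 bases, the length of the reads, the transcripts of the alpha members were private to 1 member in between 34.1% and 52.0% of their windows (median 46.1%), and those of the gamma members in between 44.8% and 55.4% (median 53.3%). Between 47.9% and 54.2% of the alpha windows and between 44% and 45.1% of the gamma windows were common to every member of the cluster. Windows were those of 1 coding transcript per member, the one with most sequence common to its cluster and, among equals, the longest. Transcripts with less of the common sequence were thus left out of these shares. Beta members, with 65.9% to 100% of their windows private (median 91.2%), had no window in common to the whole cluster. Counts of single alpha and gamma members therefore rest partly on RSEM's division of reads. To a lesser degree so do those of beta members, of which 14 of 16 were fractional in all libraries. The summed counts of the alpha and of the gamma cluster were close to whole numbers, so these sums hardly rest on the division. The beta sums were not (2120.18 in hESC replicate 1), so that they rest partly on reads divided with genes outside the cluster's members.

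The libraries held between 19454543 and 23036426 expected counts, at which 3 counts, taken as the smallest detectable amount, are worth between 0.125 and 0.160 CPM (counts scaled to the library size by the TMM method). Pearson's correlation of log values across genes lay between 0.988 and 0.992 within groups and between 0.922 and 0.930 between them, a description over genes and not over replicates. The labels held against their markers: all 4 hESC markers were lower in NMP-L cells (NANOG had 1831, 1887 and 1655 counts in hESCs and 340, 332 and 372 in NMP-L cells), and 5 of 6 NMP markers were higher, the remaining one being SOX2, with T at 0, 0 and 2 counts in hESCs and 537, 293 and 629 in NMP-L cells. Of markers of other cell types, 3 of 6 tested neuron, 2 of 3 endothelium and 2 of 2 neural crest markers were lower in NMP-L cells and 0 were higher. Among all tested genes 26.7% were lower and 29.1% higher, and these lists are short. The neuron list summed to between 104 and 124 CPM in hESCs and between 67.2 and 72.3 CPM in NMP-L cells, the endothelium list to between 444 and 460 CPM against between 120 and 140 CPM, and the neural crest list to between 25.8 and 30.8 CPM against between 3.67 and 4.31 CPM. Single genes made up most of these sums in hESCs. KDR went from 407 to 106 CPM, FOXD3 from 21.2 to 0.726 CPM and the neuron marker SYT1 from 68.5 to 35.7 CPM. The endothelium marker PECAM1 had 1, 2 and 1 counts in hESCs and 0, 1 and 5 in NMP-L cells, and EMCN and TFAP2B were at 0 in all libraries. The endoderm list summed to between 2.32 and 3.29 CPM against between 15.6 and 26.5 CPM, with 1 of its 2 tested markers (FOXA2) higher. Most of the NMP-L sum was FOXA2, which went from 0.121 to 18.7 CPM, while SOX17 had 1, 0 and 0 counts in each group. The part of these lists in the values below was not tested. In these bulk cultures fewer cells of a type and less RNA per cell cannot be told apart.

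The protocadherins differed between the groups about as often as other genes, but the clusters went different ways. With edgeR's quasi-likelihood test and an adjusted p (Benjamini-Hochberg over all 15517 genes tested) under 0.05, 33 of the 57 members that passed the count filter differed, where 55.8% of all tested genes did. Of these, 15 were higher in NMP-L cells (29.1% of all tested genes were higher) and 18 were lower (26.7%). A rise of 2-fold or more was reached by 6 members (9.38% of all tested genes) and a fall of that size by 11 (9.18%). The median log2 fold change of the 57 was -0.26, against 0.03 over all tested genes. In the alpha cluster 7 of 13 tested members were higher and 2 lower, with a median of 0.43, and the 2 became 1 (PCDHA1) without any of hESC replicates 1, 2 and 3 or NMP-L replicates 2 and 3. In the beta cluster 0 of 13 were higher and 11 lower, with a median of -0.998. The 11 became 9 without hESC replicate 1, hESC replicate 3 or NMP-L replicate 3, and 10 with DESeq2. In the gamma cluster 6 of 21 were higher and 3 lower, with a median of -0.16, and the 3 became 0 without hESC replicate 3, 0 without NMP-L replicate 2, 1 without NMP-L replicate 3 and 0 with DESeq2. Of the 10 non-clustered genes tested, 2 were higher and 2 lower, with a median of -0.01. The 8 members under the filter are PCDHA5, PCDHA8, PCDHB1, PCDHB6, PCDHB7, PCDHGA3, PCDH9 and PCDH12.

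**Figure D1:**
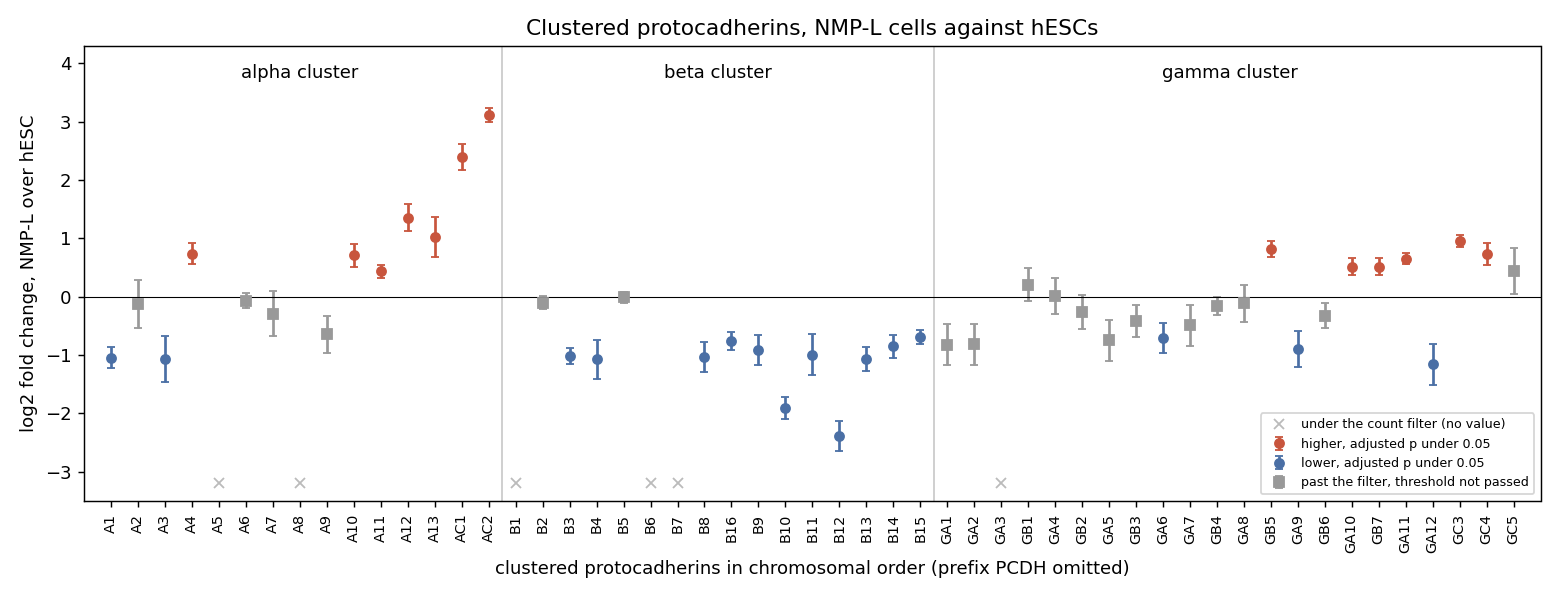
Log2 fold change (NMP-L over hESC, vertical axis) of the 53 clustered protocadherins in chromosomal order (horizontal axis), with bars of 1 standard error derived from the F statistic of edgeR. Crosses at the bottom mark members under the count filter, which have no value; the points rise to 3.12 at PCDHAC2, at the end of the alpha cluster, and none of the tested beta members lies above 0.

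Summed over each cluster, alpha and gamma transcripts were higher in NMP-L cells and beta transcripts lower. The alpha members summed to 57.6, 51 and 53.7 CPM in the 3 hESC libraries and to 117, 130 and 121 CPM in the 3 NMP-L libraries. This is 54.1 ± 3.28 against 123 ± 6.81 CPM (SD, n = 3 each), a ratio of 2.27 with no overlap of the groups. The beta members summed to 113, 107 and 117 CPM in hESCs and to 83.1, 86.2 and 79.0 CPM in NMP-L cells, a ratio of 0.735. The gamma members summed to 95.8, 96.8 and 100.4 CPM in hESCs and to 148, 138 and 139 CPM in NMP-L cells, a ratio of 1.45. Beta and gamma sums did not overlap between the groups either. In hESCs the beta cluster made up the greatest part of all clustered protocadherin counts, at 42.6 ± 0.562% (SD, n = 3), and in NMP-L cells the gamma cluster did, at 40.8 ± 1.77%. The alpha share went from 20.5 ± 0.988% to 35.4 ± 1.56% and the beta share to 23.8 ± 0.488%. On the length-scaled values the alpha ratio was smaller, at 1.79 for summed TPM (counts scaled by transcript length and to a fixed total). Shares of counts also weigh members by transcript length. In summed TPM alpha, beta and gamma stood at 29.5, 73.7 and 60.9 in hESCs and at 52.7, 59.8 and 93.6 in NMP-L cells. Per length, beta thus remained above alpha in NMP-L cells. These sums were not tested, since the genes were chosen as a family with results of these data known.

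**Figure D2:**
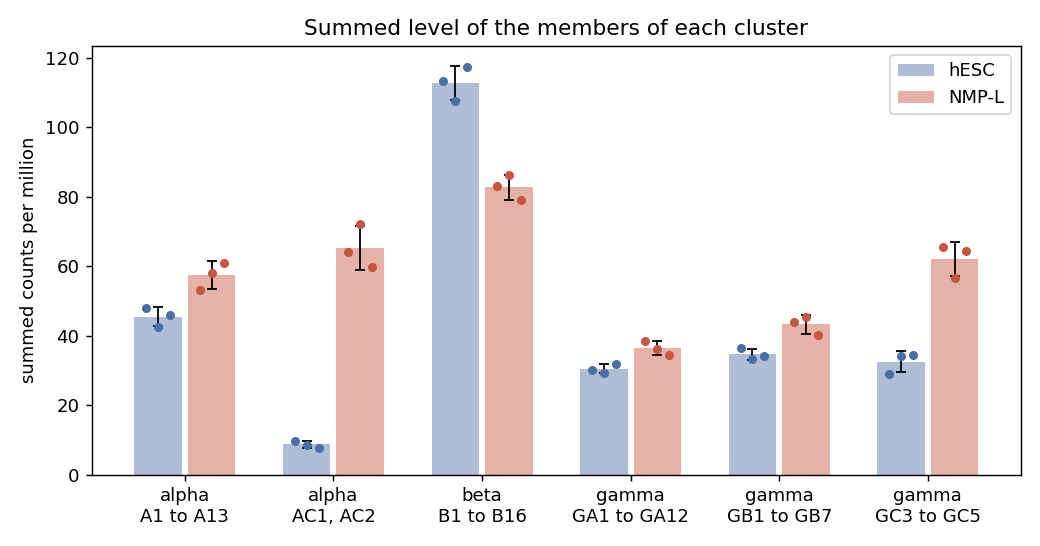
Summed expression (CPM, vertical axis) of subgroups of the 3 clusters, with bars at the mean, error bars of 1 SD and a point per library. PCDHAC1 and PCDHAC2 together go from 8.69 to 65.3 CPM and the beta genes from 113 to 82.8 CPM.

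The rise of the alpha cluster lay mostly at its downstream end: PCDHAC1 and PCDHAC2 went from 8.69 ± 0.968 to 65.3 ± 6.37 CPM in sum, and PCDHA1 to PCDHA13 from 45.4 ± 2.73 to 57.4 ± 4.04 CPM (SD, n = 3 each). Unlike the sum over the whole cluster, these part sums rest partly on RSEM's division of reads. In summed TPM, PCDHAC1 and PCDHAC2 went from 4.38 to 26.7. PCDHA1 to PCDHA13 stood at 25.1 in hESCs and 26.0 in NMP-L cells, with overlapping libraries. PCDHAC2, the last alpha isoform and one known from serotonergic neurons, where it spaces out axons, had 103, 113 and 112 expected counts in hESCs and 1119, 1129 and 1073 in NMP-L cells. The groups were far apart and each was tight. This is a rise of 8.67-fold (log2 fold change 3.12, standard error 0.12, adjusted p = 3.1e-09), and the TPM went from 2.35 ± 0.466 to 19.3 ± 2.28 (SD, n = 3). PCDHAC1, the other C-type alpha isoform, had 79.1, 54 and 37 counts in hESCs and 310, 386 and 355 in NMP-L cells. The lowest NMP-L library was far above the highest hESC library although the hESC values spread widely, and the rise was 5.28-fold (log2 fold change 2.40, standard error 0.22, adjusted p = 3.5e-06). Together these isoforms held 16.1 ± 1.35% of alpha counts in hESCs and 53.2 ± 3.27% in NMP-L cells.

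Their upstream neighbours rose less. PCDHA12 had 107, 58.4 and 140 counts in hESCs and 276, 291 and 351 in NMP-L cells, a rise of 2.56-fold (log2 fold change 1.36, standard error 0.23, adjusted p = 4.4e-04). PCDHA10 (0.71), PCDHA11 (0.43) and PCDHA13 (1.02) were also past the threshold, so that all 6 members from PCDHA10 to PCDHAC2 rose in the fit of all 6 libraries. Without hESC replicate 3, PCDHA10 (0.54) and PCDHA13 (1.11) no longer passed, nor did PCDHA13 without hESC replicate 1 (0.79) or NMP-L replicate 2 (0.75). PCDHA11 did not pass on the log2(TPM + 0.1) scale, where it was 0.36.

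The boundary at PCDHA10 was drawn after the values were seen. Of the 9 alpha members upstream of it, 7 were tested, with 1 higher (PCDHA4), 2 lower and 4 not past the threshold. PCDHA1, the first variable exon, had 129, 135 and 93.8 counts in hESCs and 69.5, 67.5 and 66.5 in NMP-L cells. All hESC libraries lay above all NMP-L libraries, and PCDHA1 was 2.06-fold lower in NMP-L cells (log2 fold change -1.04, standard error 0.18, adjusted p = 4.2e-04). PCDHA6, the alpha member with the highest TPM in hESCs (5.03 ± 0.378, SD, n = 3), had 183, 176 and 184 counts in hESCs and 184, 185 and 240 in NMP-L cells, and did not pass the threshold (log2 fold change -0.07, standard error 0.12, adjusted p = 0.66). PCDHA3 had 36, 33.3 and 26 counts in hESCs and 30.7, 7.05 and 14.8 in NMP-L cells, with overlapping groups. Its fall (log2 fold change -1.07, adjusted p = 0.040) was lost when any library but NMP-L replicate 1 was left out, at values from -1.21 to -0.72. PCDHA4 (0.74) did not pass on the log2(TPM + 0.1) scale, where it was 0.10. PCDHA1 to PCDHA9 together went from 48.1 ± 0.278% to 18.5 ± 2.38% of alpha counts. Such a share also goes down when other members rise, so it does not measure a fall. That of PCDHA10 to PCDHA13 went from 35.8 ± 1.48% to 28.3 ± 1.52%, although each of these members was higher in NMP-L cells. Of the alpha promoters that matched, 3 of 6 of members that rose held ATGTCGCT (not PCDHA11, PCDHAC1 and PCDHAC2), as did that of PCDHA1 and 3 of 4 of members not past the threshold.

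**Figure D3:**
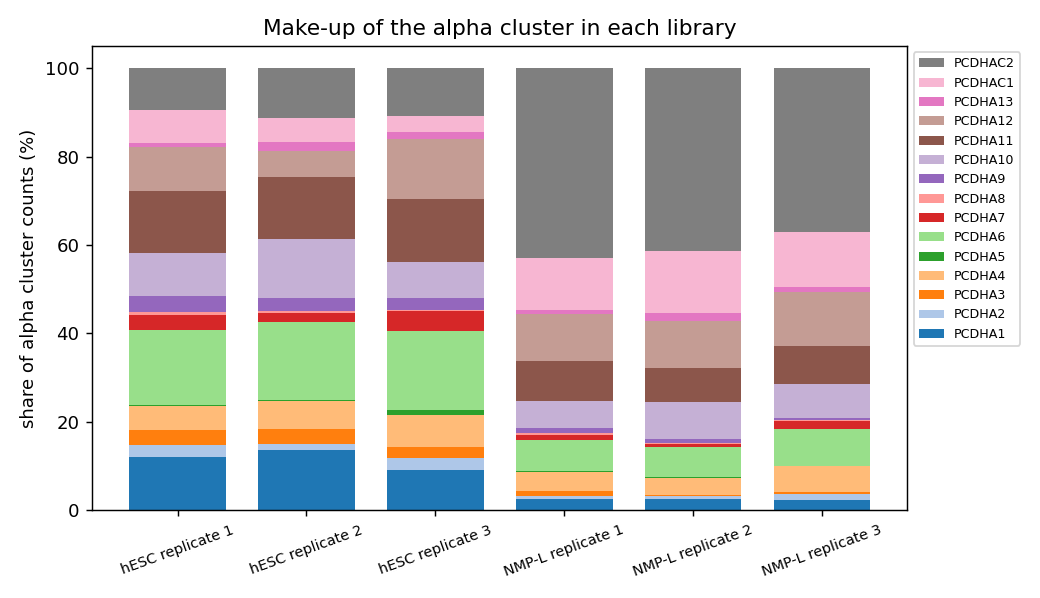
Share of the alpha cluster's expected counts (percent, vertical axis) held by each of its 15 members in each of the 6 libraries. PCDHAC2 holds between 9.54% and 11.4% in the hESC libraries and between 37.1% and 42.8% in the NMP-L libraries.

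Among the beta genes the falls were widespread, and the most abundant pair stood aside. PCDHB12 had 109, 81.1 and 97.9 counts in hESCs and 13.4, 27.3 and 23.7 in NMP-L cells. The groups were widely separated, and PCDHB12 was 5.24-fold lower in NMP-L cells (log2 fold change -2.39, standard error 0.26, adjusted p = 1.5e-05). PCDHB10 had 104, 92.2 and 99.4 counts in hESCs and 27.6, 32.2 and 31.9 in NMP-L cells, and was 3.74-fold lower (log2 fold change -1.90, standard error 0.19, adjusted p = 5.5e-06). PCDHB13, with 51.6, 58.7 and 62.5 counts against 26.6, 34.1 and 35.9, fell by 1.07 on the log2 scale (adjusted p = 0.0011). PCDHB8, with 27.2, 29.5 and 34.2 counts against 14.8, 16.9 and 20.3, fell by 1.03 (adjusted p = 0.0050). In both genes the lowest hESC library lay above the highest NMP-L library. PCDHB4 had 34.9, 32 and 16.3 counts in hESCs and 16, 14.6 and 15.5 in NMP-L cells, so that hESC replicate 3 lay next to the NMP-L libraries. Its fall of 1.07 (adjusted p = 0.017) no longer passed without hESC replicate 1 (-0.88), hESC replicate 2 (-0.97) or NMP-L replicate 3 (-1.01). The 11 members that fell had log2 fold changes between -2.39 and -0.69. Among them PCDHB11 no longer passed without hESC replicate 1 (-0.81), hESC replicate 3 (-1.05), NMP-L replicate 2 (-1.09) or NMP-L replicate 3 (-0.70). It did not pass with DESeq2 (-1.02) either. PCDHB9 no longer passed without hESC replicate 3 (-0.80).

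PCDHB5 and PCDHB2 were the beta genes with the highest levels per length. PCDHB5 had 619, 679 and 659 counts in hESCs and 798, 724 and 748 in NMP-L cells (log2 fold change -0.01, standard error 0.09, adjusted p = 0.93). PCDHB2 had 438, 427 and 449 counts in hESCs and 457, 496 and 480 in NMP-L cells (log2 fold change -0.10, standard error 0.11, adjusted p = 0.44). Neither passed the threshold, and together they went from 50.7 ± 1.93% of beta counts to 66.8 ± 1.56%. PCDHB15, the next in TPM, had 200, 209 and 233 counts in hESCs and 146, 143 and 178 in NMP-L cells, and fell by 0.69 on the log2 scale (standard error 0.12, adjusted p = 5.4e-04). PCDHB1, which stands apart at the upstream end of the cluster and whose promoter lacks GTGGCGCT, had 1, 3 and 1 counts in hESCs and 10, 6 and 9 in NMP-L cells. Against the floor of 3 counts per library its NMP-L level was at least 2.36-fold higher (exact permutation test, two-sided, on log2 values with a pseudocount of 0.1, p = 0.1, the smallest that 3 against 3 libraries allow), and passed the threshold as a rise when no count filter was used. GTGGCGCT stood in all 10 matched promoters of beta genes that fell and in those of PCDHB2 and PCDHB5.

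In the gamma cluster no rise reached 2-fold in the edgeR fit. PCDHGC3, the gamma member with the highest TPM in both groups, had 493, 606 and 595 counts in hESCs and 1348, 1098 and 1404 in NMP-L cells. The groups did not overlap, and the rise was 1.94-fold (log2 fold change 0.95, standard error 0.10, adjusted p = 1.2e-05), with 19.5 ± 1.93 TPM in hESCs and 43.9 ± 3.90 TPM in NMP-L cells (SD, n = 3 each). PCDHGC3 held 30.2 ± 2.43% of gamma counts in hESCs and 40.3 ± 2.22% in NMP-L cells. PCDHGC4, the isoform known for the survival of interneurons, had 45.7, 45.7 and 55.2 counts in hESCs and 98.4, 71 and 119 in NMP-L cells, and rose by 0.73 on the log2 scale (standard error 0.20, adjusted p = 0.0078). PCDHGC5 had 4.70, 13 and 9.44 counts against 10, 15.6 and 17, with overlapping groups, and did not pass (log2 fold change 0.44, standard error 0.40, adjusted p = 0.37). Thus 4 of the 5 C-type isoforms of the alpha and gamma clusters rose, where 29.1% of all tested genes did. Their counts are not independent, since members of a cluster share reads.

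PCDHGB5 had 213, 170 and 186 counts in hESCs and 358, 414 and 399 in NMP-L cells (log2 fold change 0.81, standard error 0.13, adjusted p = 3.2e-04). PCDHGA11 had 247, 256 and 245 counts in hESCs and 441, 441 and 498 in NMP-L cells (log2 fold change 0.65, standard error 0.10, adjusted p = 2.1e-04). Both rose without overlap of the groups, as did PCDHGA10, with 105, 104 and 117 counts in hESCs and 206, 167 and 172 in NMP-L cells (log2 fold change 0.51, adjusted p = 0.0089). PCDHGA12, with 14.1, 16.3 and 22.0 counts against 12.1, 7.04 and 8, fell by 1.16 on the log2 scale (adjusted p = 0.015), and PCDHGA9, with 19, 30.7 and 32 counts against 22.3, 15.1 and 14, by 0.90 (adjusted p = 0.027). These falls rest on few counts. PCDHGA12 no longer passed without hESC replicate 3 (-0.97), NMP-L replicate 2 (-1.05) or NMP-L replicate 3 (-1.03), and PCDHGA9 without hESC replicate 2 (-0.82), hESC replicate 3 (-0.79), NMP-L replicate 2 (-0.86) or NMP-L replicate 3 (-0.73), nor with replicate number as a block (-0.90). Neither gene passed with DESeq2. PCDHGA6 had 51.8, 43.4 and 51.2 counts in hESCs and 48.5, 29.2 and 26.9 in NMP-L cells, which overlap as counts but not as CPM. Its fall of 0.71 (adjusted p = 0.035) was lost without hESC replicate 1 (-0.68), hESC replicate 3 (-0.69), NMP-L replicate 2 (-0.64) or NMP-L replicate 3 (-0.52), with DESeq2 (-0.74) and with library size only (-0.64). Along the cluster, divided at PCDHGA10 after the values were seen, 5 of the 7 members from PCDHGA10 to PCDHGC5 rose and 1 fell, and of the 14 tested members upstream 1 rose and 2 fell. Without hESC replicate 3 the rise of PCDHGB7 in the downstream stretch (0.52) no longer passed, at 0.36. The 12 gamma members not past the threshold had log2 fold changes between -0.83 and 0.44.

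**Figure D4:**
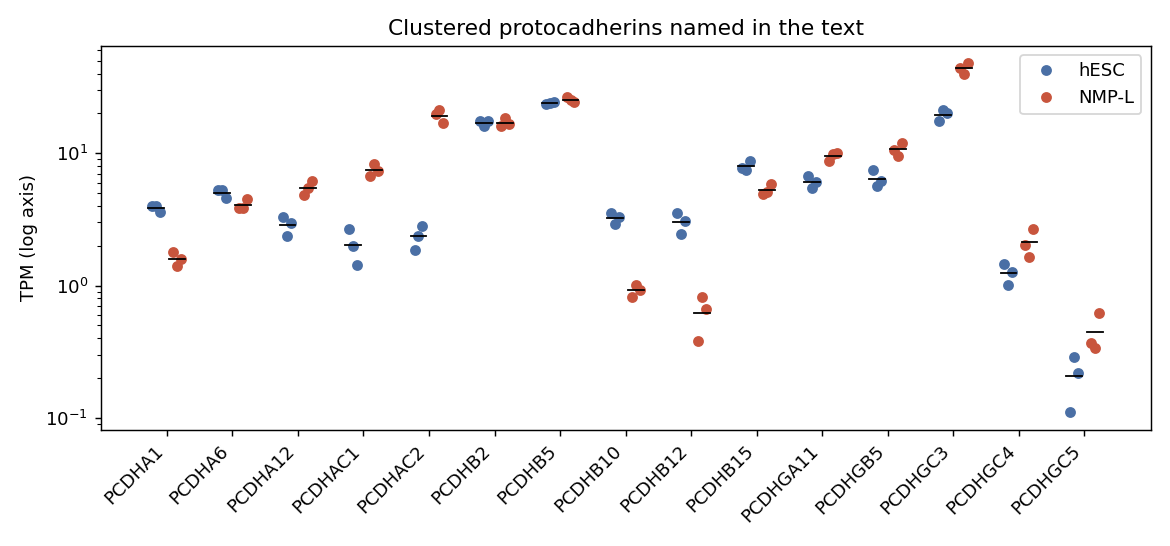
TPM (log axis) of 15 clustered protocadherins described in the text, with a point per library (3 hESC, 3 NMP-L) and lines at the means. PCDHAC2 goes from 2.35 to 19.3 TPM and PCDHB12 from 3.03 to 0.620 TPM, while PCDHB5 stays near its hESC level at 24.0 and 25.5 TPM.

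The non-clustered genes, whose counts were whole numbers except for PCDH11X, held the largest fitted rise of the family. PCDH8, the homologue of paraxial protocadherin, which acts in the movement of mesoderm cells, had 6, 10 and 13 counts in hESCs and 102, 124 and 105 in NMP-L cells (chr13:53417024-53422776). The lowest NMP-L library was far above the highest hESC library, and the rise was 9.69-fold (log2 fold change 3.28, standard error 0.27, adjusted p = 1.5e-06). Of the markers of paraxial mesoderm, 0 of 4 tested were higher and 2 were lower (TBX6 and TCF15), where 29.1% and 26.7% of all tested genes were. The list summed to between 11.9 and 13.9 CPM in hESCs and between 5.73 and 7.53 CPM in NMP-L cells. Most of the hESC sum was TBX6 (5.66 CPM) and TCF15 (5.14 CPM). Under the count filter, MSGN1 had 0 counts in every hESC library and 7, 4 and 2 in NMP-L cells, while FOXC2 had 8, 4 and 10 against 0, 0 and 1. Which cells held the PCDH8 transcripts was not tested. PCDH18, a delta-2 protocadherin that binds the adaptor DAB1, had 1087, 984 and 1018 counts in hESCs and 4646, 4269 and 5097 in NMP-L cells (chr4:138440072-138453648). All NMP-L libraries stood far above the hESC libraries, a rise of 3.86-fold (log2 fold change 1.95, standard error 0.08, adjusted p = 7.0e-09).

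Another pair of delta protocadherins fell. PCDH10, which binds the WAVE complex that drives actin assembly, had 239, 166 and 272 counts in hESCs and 82, 50 and 84 in NMP-L cells (chr4:134070449-134129761), and was 3.69-fold lower in NMP-L cells (log2 fold change -1.88, standard error 0.21, adjusted p = 1.9e-05). PCDH7, a delta-1 protocadherin, had 98, 92 and 114 counts in hESCs and 48, 40 and 26 in NMP-L cells (chr4:30721991-31148427), and was 3.10-fold lower (log2 fold change -1.63, standard error 0.24, adjusted p = 1.2e-04). In both genes the groups did not overlap.

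PCDH1, known from airway epithelium, was the most abundant protocadherin in both groups and did not pass the threshold. It had 3391, 3824 and 3642 counts in hESCs and 4372, 4199 and 4043 in NMP-L cells (log2 fold change -0.01, standard error 0.08, adjusted p = 0.96), at 95.5 ± 2.52 and 98.6 ± 6.46 TPM (SD, n = 3). PCDH11X had 588, 305 and 517 counts in hESCs and 468, 584 and 594 in NMP-L cells (log2 fold change -0.01, standard error 0.21, adjusted p = 0.98). Its hESC libraries spread around the NMP-L ones. Only 56.4% of its windows were private, so that its counts rest partly on RSEM's division of reads that also fit a near-identical copy. PCDH19, a partner of N-cadherin whose loss causes an X-linked epilepsy, had 72, 54 and 52 counts in hESCs and 81, 91 and 103 in NMP-L cells (log2 fold change 0.40, standard error 0.19, adjusted p = 0.096), and passed the threshold as a rise without hESC replicate 1 (0.55) and with scaling by library size only (0.47).

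The remaining non-clustered genes had fewer than 50 counts in every library. PCDH15, a part of the tip links of hair cells, had 33, 38 and 47 counts in hESCs and 32, 28 and 45 in NMP-L cells (log2 fold change -0.40, adjusted p = 0.17). PCDH17 had 16, 7 and 23 counts against 15, 24 and 28 (log2 fold change 0.31, adjusted p = 0.53). PCDH20 had 18, 7 and 22 counts against 7, 16 and 4 (log2 fold change -1.01, adjusted p = 0.13), and passed as a fall without hESC replicate 2 (-1.37) and without NMP-L replicate 2 (-1.75). The groups overlapped in all 3 genes. PCDH9 had 6, 5 and 12 counts against 5, 8 and 8 (two-sided exact permutation test p = 0.7). PCDH12, a protocadherin of endothelium, was at or under 3 counts in every library.

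**Figure D5:**
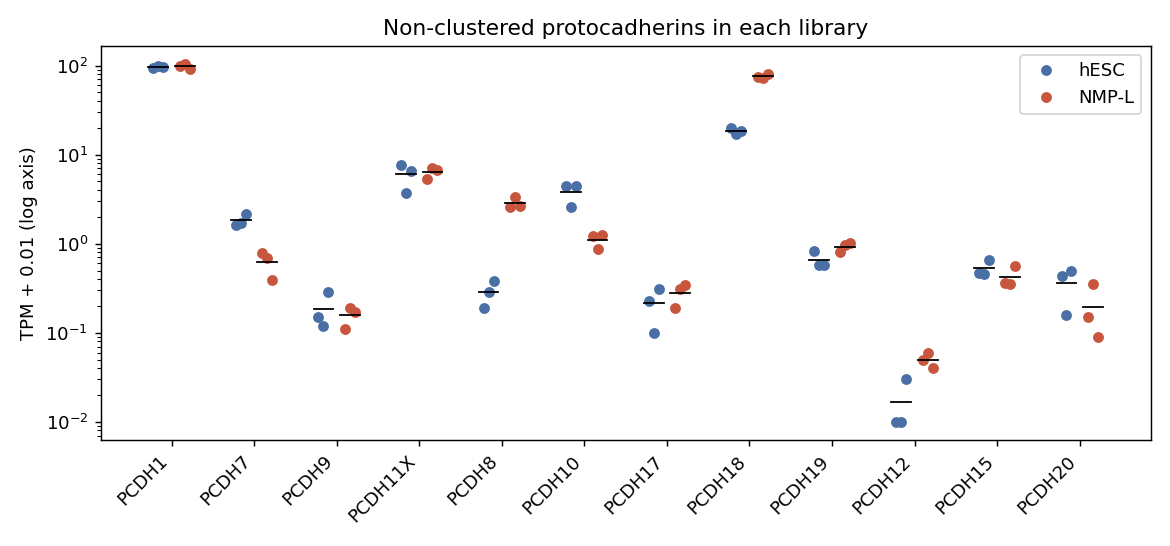
TPM plus 0.01 (log axis) of the 12 non-clustered protocadherins, with a point per library (3 hESC, 3 NMP-L) and lines at the means. PCDH8 (0.277 to 2.83 TPM) and PCDH18 (18.4 to 76.1 TPM) are higher in NMP-L cells, and PCDH10 (3.80 to 1.10 TPM) and PCDH7 (1.82 to 0.610 TPM) lower.

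Per length, few members dominated the family. In hESCs 39 of the 65 members had a mean of at least 1 TPM and 5 of at least 10 TPM. These were PCDH1, PCDHB5 (24.0 ± 0.327 TPM), PCDHGC3 (19.5 ± 1.93), PCDH18 (18.4 ± 1.63) and PCDHB2 (17.0 ± 0.936, SD, n = 3 each), of which PCDHGC3, PCDH18 and PCDHB2 overlapped with their neighbours in this order. In NMP-L cells 32 members reached 1 TPM and 7 reached 10 TPM. The order there was PCDH1, PCDH18 (76.1 ± 4.31), PCDHGC3 (43.9 ± 3.90), PCDHB5 (25.5 ± 0.975), PCDHAC2 (19.3 ± 2.28), PCDHB2 (17.0 ± 1.26) and PCDHGB5 (10.7 ± 1.16), with overlap between PCDHAC2 and PCDHB2.

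Genes that act on protocadherin promoters or on chromatin in general, and genes that act with protocadherin proteins, were read from 2 lists. Their action on the protocadherins of these cells was not tested. Of 27 regulators of CTCF and cohesin looping, silencing or DNA methylation, 7 were higher and 10 lower (29.1% and 26.7% of all tested genes were), with a median log2 fold change of -0.02 against 0.03 over all tested genes. CTCF, which binds the promoters and the enhancers of the clusters, did not pass the threshold (log2 fold change -0.06, standard error 0.07, adjusted p = 0.52). The greatest falls were those of the DNA methyltransferases DNMT3B (-1.71, standard error 0.07) and DNMT3A (-0.77) and of the silencing cofactor TRIM28 (-0.66), and the greatest rises those of the cohesin subunits STAG1 (0.91) and SMC1A (0.63) and of SMCHD1 (0.59), a silencer of the inactive X chromosome and of the protocadherin clusters. Of 20 cytoplasmic and adhesive partners, 8 were higher and 3 lower, with a median of 0.15, so that 11 of 20 differed where 55.8% of all tested genes did. CDH2, N-cadherin, had 349, 265 and 270 counts in hESCs and 1520, 1535 and 1702 in NMP-L cells (log2 fold change 2.20, standard error 0.12, adjusted p = 6.3e-08). The kinase PTK2B (1.01), which binds protocadherin cytoplasmic ends, and the WAVE subunit WASF2 (0.76) were the next greatest rises, and WASF1 (-0.82), the receptor kinase RET (-0.77) and DOCK1 (-0.39) the 3 that fell.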

How the data were processed

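Polyadenylated RNA of 6 libraries was sequenced as single-end reads of 76 bases. The authors deposited 1 table of genes with raw expected counts from RSEM and with TPM, scaled by RSEM for length so that each library totals 1000000. The RNA-seq itself is not described in the study's Methods. The submitters' processing notes name cutadapt 1.9.1, STAR 2.5.2a, RSEM 1.3.0, DESeq2 1.12.3 and hg19.

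Expected counts were rounded to whole numbers, filtered with filterByExpr (minimum count 10), scaled by TMM and tested across all genes by edgeR 4.0.16 (glmQLFit, glmQLFTest, R 4.3.3), with Benjamini-Hochberg adjustment. Sums and permutation tests used CPM, with a pseudocount of 0.1. Coordinates and windows come from GENCODE 44 on GRCh37 and promoters from RefSeq. The code was tested on simulated data. Alternatives were RLE, upper-quartile and library-size scaling, DESeq2 1.42.0, limma 3.58.1 on log2(TPM + 0.1), other count filters, summed TPM, a replicate block and each library left out.

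The members and gene lists were chosen with earlier results of these data known. Named were the non-clustered genes over 3 counts, in each cluster the 5 greatest changes past the threshold and the 3 highest TPM, the C-type isoforms, and of each partner list 3 rises and 3 falls with CTCF. PCDHA4, PCDHA10, PCDHA11, PCDHA13, PCDHB1, PCDHB9, PCDHB11, PCDHGA2, PCDHGA6, PCDHGA10, PCDHGB7, PCDH12 and the members listed as under the filter are named outside the rule, on the strength of their values. The same holds for the named markers of cell types other than hESCs and NMP cells. Per-sample columns left unused numbered 0.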

Additional observations from a re-analysis of the deposited data

How the results depend on the processing

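The number of members that differed was 33 in the fit of all libraries. It was 33 with RLE or upper-quartile scaling, 32 with library size only and with limma on TPM, 29 with DESeq2 and with at least 10 counts in every library, and 35 with no filter beyond 1 count in total. With each library left out in turn it lay between 24 (without hESC replicate 3) and 34, and 0 of the 33 changed direction in any of these settings. Library size only and limma on TPM moved the median log2 fold change of all tested genes from 0.03 to 0.10 and 0.12.

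The conditions share replicate numbers, but deviations of same-numbered libraries correlated at -0.37, -0.06 and -0.13, so the numbers do not show a pairing. With replicate number as a block 33 members differed, 32 of them among the 33 of the fit without it, with PCDHGA9 lost and PCDHGA2 gained.

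The log2 ratio of the summed counts was 1.18 for alpha, -0.44 for beta, 0.54 for gamma and 0.58 for non-clustered members. By summed TPM it was 0.84 for alpha, -0.30 for beta and 0.62 for gamma. By library size only it was 0.61 for gamma and 0.66 for non-clustered members. With each library left out it lay between 1.14 and 1.22, -0.48 and -0.41, 0.50 and 0.56, and 0.55 and 0.61 in the same order. The cause of these shifts was not tested. The 8 members under the count filter were tested when it was dropped, and PCDHB1 and PCDHB7 then passed the threshold.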
